A study of Rattus norvegicus with 8 samples.

Results

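Pancreatic acinar genes were examined in the liver of rats given an extract of Eucommia ulmoides leaves and of rats without it. There were 9 of them among the 13031 gene symbols that the array could name: Serpini2, Ctrb1, Cela2a, Cela1, Cpa1, Cpb1, Prss1, Pnlip and Cel. They were found through the RefSeq accession of their probes, and each had 1 probe. They were selected on the processed signals of these arrays, with the difference between the groups in view, so their differences between groups are given as a description with no test. The Eucommia group held 4 arrays from male Wistar/ST rats whose drinking water carried the leaf extract, and the control group 4 arrays from male Wistar/ST rats without it. All rats were fed a high-fat diet with fructose-rich water, and liver was taken after 5 weeks. For each Agilent array, 500 ng of RNA was labelled with Cy3. The labels give neither the age of the rats nor the dose of the extract. They describe liver taken from each rat but do not state that each array is another rat, so the spread between arrays may be partly technical.

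Acinar cells make up most of the exocrine pancreas. They secrete digestive enzymes into the gut, the proteases mostly as inactive precursors that are activated in the intestine. Trypsin, chymotrypsin and the elastases are serine proteases that cut inside a protein chain, carboxypeptidases remove residues from its end, and pancreatic lipase and carboxyl ester lipase split dietary fats and esters. The transcription factor complex PTF1, which contains Ptf1a and Rbpjl, drives many of these genes and binds a bipartite element made of an E-box and a second short motif. Adult liver parenchyma is not known as a source of most of these enzymes.

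The signal of a spot was read as Agilent's processed signal, in scanner units, and as a log2 value minus the 75th percentile of its array, so that 0 is the signal at that percentile. A spot was taken as detected where the scanner software marked it well above background. The lowest signal so marked was 5.69 to 6.05 units on Eucommia arrays and 11.2 to 13.7 units on control arrays. The percentage of spots detected was 70.7 ± 1.16 on Eucommia arrays and 59.8 ± 1.17 on control arrays (SD, n = 4 each). The Eucommia arrays shared 1 slide and scanning session and the control arrays another, so the slide cannot be told apart from the treatment. In whole-tissue RNA, fewer cells of a type and less RNA per cell also cannot be told apart. All 15 hepatocyte markers examined, Alb and Apoa1 among them, were detected on all 8 arrays.

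The label of acinar genes did not describe a set that was present as a whole. Of the 9 genes, Ctrb1, Cela2a, Cpb1 and Cel were detected on all 8 arrays. Serpini2 was detected on the 4 Eucommia arrays and no control array, and Pnlip on the 4 Eucommia arrays and 1 control array. Cpa1 was detected on 2 Eucommia arrays and no control array, Cela1 on no Eucommia array and 1 control array, and Prss1 on none. On single arrays 7, 6, 6 and 7 of the 9 were detected in the Eucommia group, against 4, 5, 5 and 4 in the control group. The 9 genes are therefore taken one by one below.

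**Figure D1:**
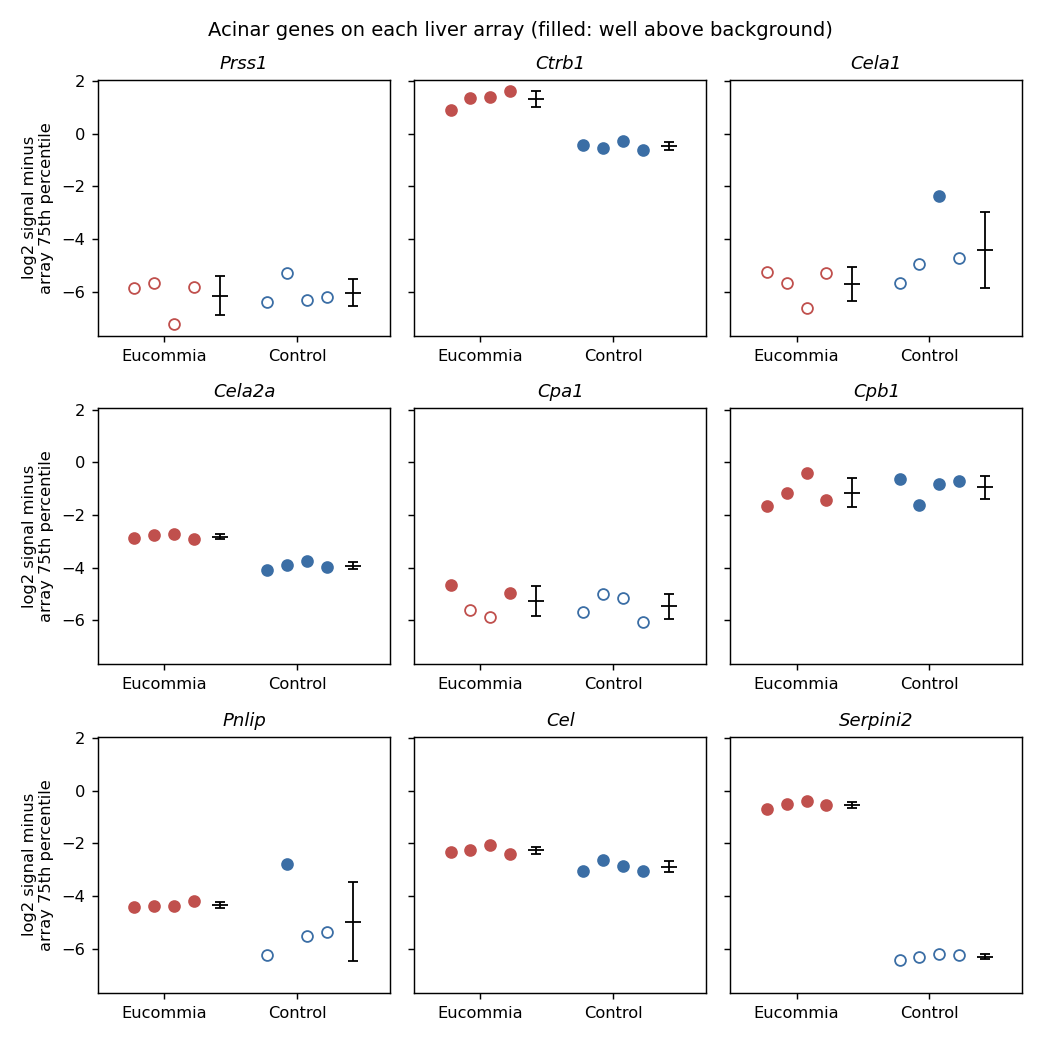
The 9 acinar genes on each array, as log2 signal minus the array's 75th percentile, with Eucommia arrays left of control arrays in every panel. Filled points were well above background and open points were not, and the bar beside each group is its mean with the SD of 4 arrays. Serpini2, Ctrb1, Cela2a and Cel lie apart between groups, whereas Cela1 and Pnlip each have 1 control array far above the other 3.

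Among the serine proteases, Ctrb1, which encodes chymotrypsinogen B, had processed signals of 415, 537, 557 and 614 units on the Eucommia arrays, against 188, 145, 177 and 156 units on the control arrays. All 4 Eucommia arrays were higher than all 4 control arrays. The scaled log2 signal averaged 1.32 ± 0.29 in the Eucommia group and -0.47 ± 0.14 in the control group (SD, n = 4 each), a difference of 1.79 or 3.45-fold. Over the 17 ways of processing tried for these genes the difference of Ctrb1 ran from 1.35 to 1.92, and its groups were apart in all of them.

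Cela2a, a chymotrypsin-like elastase, had 30.1, 30.5, 32.2 and 26.7 units on Eucommia arrays, against 15.0, 14.1, 15.9 and 15.3 units on control arrays. The groups did not overlap, and the scaled log2 signal was -2.82 ± 0.09 in the Eucommia group and -3.93 ± 0.14 in the control group (SD, n = 4 each). The log2 difference was 1.11. It was 0.85 with quantile normalization and 0.24 with normexp background correction and quantile normalization together, where normexp adds an offset that compresses dim signals. The control signals lay just above the lowest signal called detected on that slide.

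Cela1, the other elastase, behaved unlike Cela2a. It had 5.83, 4.16, 2.16 and 5.10 units on Eucommia arrays, none of them detected, against 5.05, 6.84, 42.3 and 9.16 units on control arrays. Only control replicate 3, at 42.3 units, was detected, and the other 3 control arrays were at background. No bound is given for Cela1, because the control mean takes in those 3 undetected signals. Without control replicate 3 Cela1 was undetected on every array, so no log2 difference is given either.

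Prss1, which encodes a trypsinogen, was at background throughout. It had 3.81, 4.09, 1.41 and 3.59 units on Eucommia arrays and 3.08, 5.46, 2.75 and 3.21 units on control arrays. No fold is given for it.

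The promoters of Ctrb1 and Cela1 are shown because both hold the PTF1-type arrangement, while Ctrb1 was detected on all 8 arrays and Cela1 on 1. The promoter of Serpini2 is shown because it holds neither motif of that arrangement. Each runs from 250 bases before to 50 bases after the start of the gene in RefSeq (build GRCr8). The Ctrb1 promoter is chr19:56566929-56567228 and that of Cela1 chr7:133665012-133665311, while that of Serpini2 is chr2:162342826-162343125, all on the minus strand and written 5′ to 3′ along the gene. Capitals mark the E-box CACCTG, the second PTF1 motif TTTCCC and the TATA-box motif TATAAA, each searched on both strands.
Ctrb1: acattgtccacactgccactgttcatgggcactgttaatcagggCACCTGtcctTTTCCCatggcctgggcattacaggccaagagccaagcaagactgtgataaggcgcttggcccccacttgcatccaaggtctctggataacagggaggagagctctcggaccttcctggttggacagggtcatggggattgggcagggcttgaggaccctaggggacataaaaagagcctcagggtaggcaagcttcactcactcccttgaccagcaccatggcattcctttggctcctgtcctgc
Cela1: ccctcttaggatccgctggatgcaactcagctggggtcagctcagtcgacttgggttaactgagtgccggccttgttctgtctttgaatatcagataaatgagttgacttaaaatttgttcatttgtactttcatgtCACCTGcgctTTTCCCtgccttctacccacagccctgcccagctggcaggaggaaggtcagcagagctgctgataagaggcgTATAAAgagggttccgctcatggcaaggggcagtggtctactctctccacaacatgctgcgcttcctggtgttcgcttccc
Serpini2: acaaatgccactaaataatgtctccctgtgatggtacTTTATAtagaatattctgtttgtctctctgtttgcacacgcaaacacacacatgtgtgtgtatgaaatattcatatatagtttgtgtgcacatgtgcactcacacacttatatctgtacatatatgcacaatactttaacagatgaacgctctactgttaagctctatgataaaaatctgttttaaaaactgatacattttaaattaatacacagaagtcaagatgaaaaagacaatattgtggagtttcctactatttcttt
In Ctrb1 and Cela1 the E-box and TTTCCC stand on the same strand, 4 bases apart. The arrangement begins at position -206 of Ctrb1 and -113 of Cela1, counted from the gene start. This arrangement, CACCTGNNNNTTTCCC, occurs on either strand in 9 of 33469 RefSeq promoters of that length (0.0269%). The single motifs are common: CACCTG is in 18.8%, TTTCCC in 25.1% and TATAAA in 14.2% of them. Of the 9 acinar genes 8 had a promoter in the table, and 2 held the arrangement. Among the 28 further acinar genes with a promoter it was found in 1, the trypsinogen gene Prss2, on the minus strand. Prss1 holds a CACCTG and 2 TTTCCC matches farther apart, and Cpa1 holds none of the 3 motifs. A match is a description of letters and not a measured site. Cela1 was detected on 1 array, so its pattern across the arrays cannot be compared with that of Ctrb1.

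Of the carboxypeptidases, Cpb1 was clearly detected and Cpa1 was not. Cpb1, procarboxypeptidase B, had 70.0, 92.6, 161 and 75.2 units on Eucommia arrays, against 163, 69.0, 123 and 144 units on control arrays. The groups overlapped over nearly their whole range. The scaled log2 signal was -1.16 ± 0.55 in the Eucommia group and -0.95 ± 0.45 in the control group (SD, n = 4 each), a difference of -0.21. Cpb1 varied within groups more than most probes of like signal. Its pooled within-group SD was 0.50, against a median of 0.18 over the 3152 probes within 0.5 log2 units of its mean, and 95.9% of those had a smaller SD. Eucommia replicate 3 was the highest of its group and control replicate 2 the lowest of its own.

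Cpa1, procarboxypeptidase A1, had 8.80, 4.26, 3.58 and 6.46 units on Eucommia arrays and 5.02, 6.52, 6.08 and 3.56 units on control arrays. Eucommia replicates 1 and 4 were detected, and no control array was. The groups overlapped, and no fold is given because the Eucommia mean lay under the detection limit of the control slide.

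Both lipases were dim. Cel, carboxyl ester lipase, which is also known from rat liver, had 44.0, 43.4, 50.5 and 38.4 units on Eucommia arrays, against 31.2, 34.6, 29.8 and 29.0 units on control arrays. The groups did not overlap. The scaled log2 signal was -2.26 ± 0.14 in the Eucommia group and -2.89 ± 0.20 in the control group (SD, n = 4 each), a difference of 0.62. It was 0.39 with quantile normalization and 0.15 with normexp and quantile normalization together.

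Pnlip, pancreatic triglyceride lipase, had 10.40, 10.11, 10.25 and 11.20 units on Eucommia arrays, all detected, against 3.44, 30.4, 4.76 and 5.81 units on control arrays. Control replicate 2 was above every Eucommia array, and the other 3 control arrays were undetected and below every Eucommia array. No log2 difference is given, since 3 of the 4 control signals were at background. The lowest signal called detected on the control arrays, 11.2 to 13.7 units, was above 3 of the 4 Eucommia signals.

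Serpini2, a serpin that was described in pancreas and is thought to inhibit serine proteases, was the exception in size. It had 137, 149, 160 and 138 units on Eucommia arrays, against 2.96, 2.64, 2.90 and 3.18 units on control arrays. The control signals were at background, so only a bound can be given: Serpini2 was at least 12.6-fold higher in the Eucommia group. Its scaled log2 means were -0.53 ± 0.12 and -6.30 ± 0.10 for Eucommia and control (SD, n = 4 each). Such an all-or-none pattern, with 4 Eucommia arrays and no control array detected, was seen at 2175 of 41012 probes (5.30%). With normexp and quantile normalization together, where the offset compresses dim signals, the log2 difference was 1.78. The nearest measured genes on either side of Serpini2 in the RefSeq gene order, Bche and Pdcd10, had log2 differences of -0.49 and -0.04 and did not pass the test (adjusted p by limma 0.175 and 0.832).

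Across the 9 genes, every Eucommia array lay above every control array for 4 (Ctrb1, Cela2a, Cel and Serpini2) and below for 0. Over all 41012 probes this held for 14.3% above and 20.8% below. As the genes were picked with this comparison in view, nothing is read from that count. The median log2 difference over the 9, with undetected signals at their measured values, was 0.62, against -0.09 over all probes with no filter. Over the ways of processing it ran from 0.03 with normexp and quantile normalization to 0.71 without control replicate 2.

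Across single arrays, ranks were read for the genes detected on all 4 arrays of a group. In the Eucommia group these were 6 genes, of which 4 were highest on replicate 3 (Cela2a, Cpb1, Cel and Serpini2) and 2 on replicate 4 (Ctrb1 and Pnlip). Eucommia replicate 1 was the lowest array for 4 of them and lay below the group mean for all 6, by 0.05 to 0.49, while replicate 3 lay above it for 5. The share of all probes that were lowest on Eucommia replicate 1 was not counted. The 75th percentile subtracted on that array was 239 units, the highest of its group (219 to 228 on the others). Before scaling, Ctrb1 (415 units), Cpb1 (70.0 units) and Serpini2 (137 units) were also lowest on that array, whereas Cela2a, Pnlip and Cel were not. Whether the array shifted as a whole was not tested. In the control group 4 genes were detected on all arrays, and their highest arrays were replicate 3 for Ctrb1 and Cela2a, replicate 2 for Cel and replicate 1 for Cpb1. Control replicate 3 lay above the group mean for all 4. Control replicate 2, which had the highest Cel and the single detected Pnlip signal of its group, had its lowest Cpb1. Counted over all 9 genes, undetected signals included, the largest number sharing a highest array was 4 in each group. With 9 genes and 4 arrays at least 3 must share one, so nothing is read from that count. With 4 arrays a group no correlation across arrays was computed for single pairs. Deviations from the group mean were small for Cela2a (-0.16 to 0.17), for Cel (-0.15 to 0.27) and for Serpini2 on the Eucommia arrays (-0.15 to 0.13). They were wide for Cpb1 (-0.67 to 0.77).

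**Figure D2:**
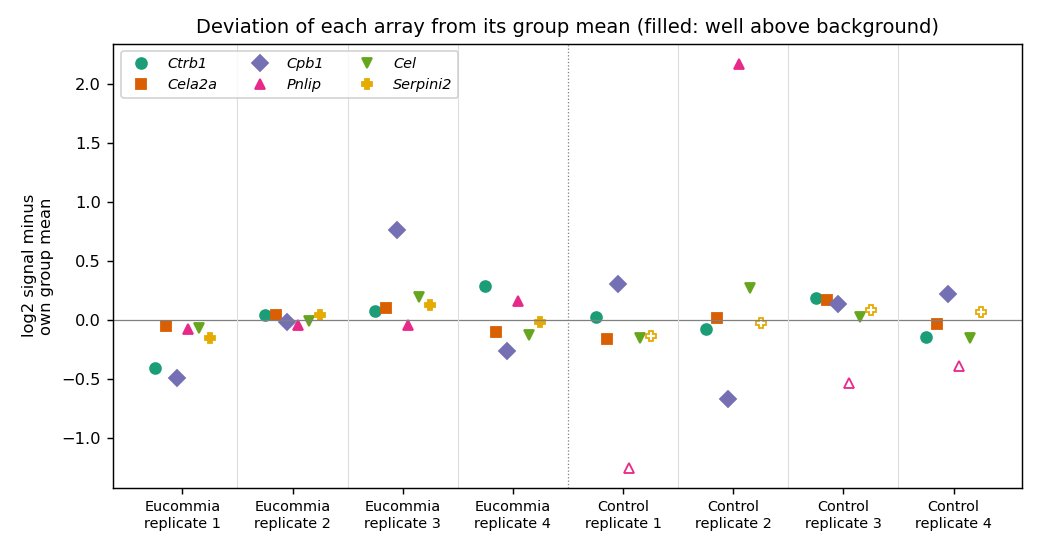
Deviation of the log2 signal from the mean of its own group, for the 6 acinar genes detected on at least 4 arrays, with Eucommia arrays left of the dotted line and control arrays right of it. Each symbol is 1 gene on 1 array, filled where it was well above background and open where it was not. Pnlip on control replicate 2 (2.17) and Cpb1 on Eucommia replicate 3 (0.77) lie farthest above their group means.

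Averaged over these 6 genes, the deviation was highest on control replicate 2 (0.28) and lowest on control replicate 1 (-0.23), mostly through Pnlip, and the control profile includes undetected Pnlip and Serpini2 signals. The named genes most like this profile, by Pearson's r of deviations from group means over the 8 arrays, were Ttc9b (0.98), Nccrp1 (0.97), Dnm1 (0.97), Rpp21 (0.95) and Or8h6 (0.95). They were the top of many candidates and carry no test. None of them is in the lists of acinar genes used here.

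The other acinar genes were taken from a list of 43 names that the choice of the 9 did not use, and 34 of them were on the array. The list was itself chosen with earlier results of these data known, so its counts are no independent support. Here the groups were compared with limma across all 25121 features detected on at least 4 of 8 arrays, with Benjamini-Hochberg adjustment over all of them and a threshold of 0.05. Of the 34 genes, 19 were tested. Of these, 7 (36.8%) were higher on the Eucommia arrays and 1 was lower, against 18.4% higher and 6.24% lower of all features tested. Dim features were higher more often: of those with a mean log2 signal under 0, 26.8% were higher, and 6 of the 15 acinar genes in that range were. The median log2 difference of the 19 was 0.18, against 0.02 over all features.

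The filter on detection can be passed through the Eucommia arrays alone, whose detection limit was lower. Among the 11 acinar genes detected on all 8 arrays, 4 were higher and 1 lower, against 11.5% higher and 6.97% lower of all 20096 features in that subset. With no filter on dim probes 7 of 34 were higher and 7 lower, against 14.3% and 19.6% of all features. The lowest signal on an array was 1.17 ± 0.03 units in the Eucommia group and 2.51 ± 0.21 units in the control group (SD, n = 4 each), and that gap is part of any difference between genes at background.

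**Figure D3:**
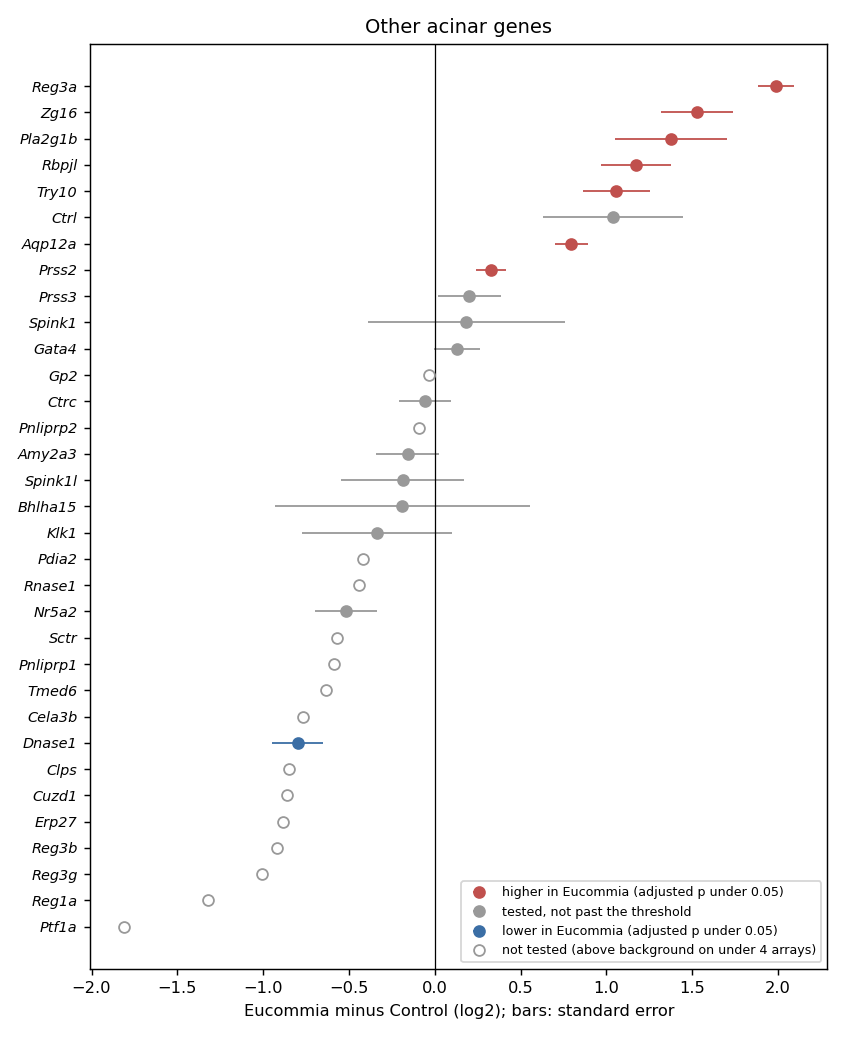
Log2 difference, Eucommia minus control, for 33 of the 34 other acinar genes on the array; bars are standard errors from limma for the 18 tested genes among them. Red and blue points passed an adjusted p of 0.05 (7 higher, 1 lower), grey points did not, and open points were detected on fewer than 4 arrays and were not tested.

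Of the digestive enzymes in that list, 3 of 10 tested were higher and 1 lower, against 18.4% and 6.24% of all features tested. Pla2g1b, the secreted pancreatic phospholipase A2, had 127, 135, 152 and 152 units on Eucommia arrays, against 39.7, 112, 51.5 and 53.8 units on control arrays. It rose by a log2 value of 1.38 ± 0.33 (SE; adjusted p by limma 0.0141), with control replicate 2 the nearest to the Eucommia arrays. Try10, a trypsin, rose by 1.06 ± 0.19 (adjusted p by limma 0.00342), and both genes passed under all 19 ways of processing. Prss2, an anionic trypsinogen, rose by 0.33 ± 0.09 (adjusted p by limma 0.0265). It passed in 10 of the 19, and of the 8 that omit a single array it passed in 3, failing without Eucommia replicate 2 or 3 or control replicate 1, 2 or 3. Trypsin genes are close paralogs, so their probes may share targets.

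Dnase1, a secreted endonuclease, was the gene that fell. It had 15.9, 11.3, 10.7 and 9.68 units on Eucommia arrays, against 21.3, 22.5, 19.5 and 25.7 units on control arrays, a log2 difference of -0.80 ± 0.15 (SE; adjusted p by limma 0.00414). The pancreatic amylase Amy2a3, one of the most abundant acinar products, had a log2 difference of -0.16 ± 0.18 and did not pass (adjusted p by limma 0.588). It had 17.6, 17.9, 15.8 and 17.4 units in the Eucommia group and 15.8, 19.7, 24.8 and 24.8 units in the control group. Amy2a3 was detected on all 8 arrays, and it is named here after its values were seen.

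Of enzyme partners, inhibitors and granule proteins, 2 of 4 tested were higher, against 18.4% of all features tested. Neither of these 2, Reg3a and Zg16, was detected on all 8 arrays. Reg3a, a secreted lectin, had 44.5, 39.7, 44.3 and 45.9 units on Eucommia arrays, against 12.5, 12.5, 10.2 and 12.9 units on control arrays. The log2 difference was 1.99 ± 0.10 (SE; adjusted p by limma 4.04e-06). It was detected on 1 control array, so its size rests on control values near background. Zg16, a zymogen granule lectin, had a log2 difference of 1.53 ± 0.21 (adjusted p by limma 0.000711). Its control signals were 20.8, 23.6, 21.9 and 13.2 units, the last, on control replicate 4, undetected. Zg16 passed under all 18 ways of processing in which it was tested, with differences from 0.43 to 1.66.

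The trypsin inhibitor Spink1 and its paralog Spink1l did not pass (log2 differences 0.18 ± 0.57 and -0.19 ± 0.36, SE; adjusted p by limma 0.854 and 0.751). Spink1 had 741, 277, 365 and 507 units on Eucommia arrays and 246, 184, 1132 and 628 units on control arrays. Spink1l had 7778, 5214, 5712 and 7474 units on Eucommia arrays and 6868, 3865, 12709 and 12183 units on control arrays. In both genes the Eucommia group was lowest on replicate 2 and the control group on replicate 2 and highest on replicate 3. Their probes may share targets, as paralogs.

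Of receptors, folding factors and transcription factors, 2 of 5 tested were higher, against 18.4% of all features tested. Aqp12a, a pancreatic water channel, had 643, 639, 569 and 511 units on Eucommia arrays, against 430.3, 326, 323 and 411 units on control arrays. It rose by 0.80 ± 0.10 (SE; adjusted p by limma 0.000318) and passed under all 19 ways of processing. Rbpjl, the subunit of PTF1 specific to acinar cells, rose by 1.17 ± 0.20 (adjusted p by limma 0.00252), with 2 control arrays detected, but did not pass with normexp and quantile normalization together (0.19, adjusted p by limma 0.0774). Nr5a2 (-0.52) and Gata4 (0.13), which are also liver transcription factors, did not pass.

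Ptf1a itself, named after its values were seen, was detected on 1 array. It had 1.32, 1.28, 1.43 and 1.79 units on Eucommia arrays and 2.71, 44.6, 2.68 and 2.87 units on control arrays, the high one being control replicate 2. That is also the array with the high Pnlip signal. On control replicates 1 to 4 in turn 14, 18, 15 and 13 of the 34 genes were detected, and replicate 2 also had the highest percentage of all spots detected in its group (61.5). Bhlha15, another acinar transcription factor that was picked out by its values, was highest on control replicate 3 (119 units), the array with the high Cela1 signal. The duct marker Tff2 (60.2 units) and the lymph node marker Cxcl13 (98.0 units), also picked out by their values, were highest on that array too. High signals there were thus not particular to acinar genes. Detection on exactly 1 of 8 arrays occurred at 4.73% of all probes. Among the 34 acinar genes it occurred at 2, and among the 9 at 1, Cela1.

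Several defining acinar products were at background on all arrays. In all, 12 of the 34 genes were detected nowhere, against 23.3% of all probes, with signals of 1.20 to 6.81 units on Eucommia arrays and 2.31 to 7.65 units on control arrays. Picked out after their values were seen, they include colipase (Clps), the lipase-related Pnliprp1 and Pnliprp2, the granule proteins Gp2 and Cuzd1, and Reg1a. Clps, the cofactor of pancreatic lipase, had 1.49, 1.47, 1.54 and 1.55 units on Eucommia arrays and 3.18, 2.63, 2.96 and 3.17 units on control arrays. Summed over the 34 genes, the unscaled signal was 7335 to 10392 units on Eucommia arrays and 5595 to 15357 units on control arrays, so the groups overlapped. The sum is dominated by Spink1l.

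**Figure D4:**
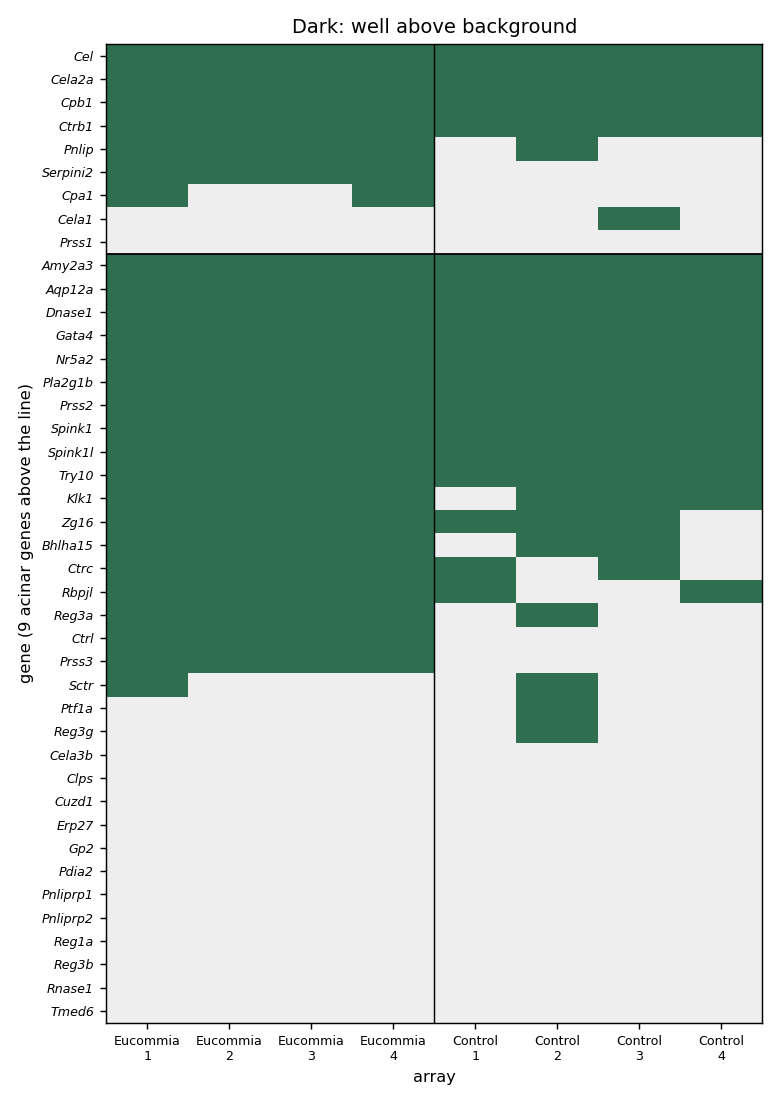
Detection of the 9 acinar genes (above the horizontal line) and of 33 of the 34 other acinar genes (below it) on each array, Eucommia arrays left of control arrays. Dark cells were well above background. Prss1 and 12 of the other genes, Clps and Cuzd1 among them, are light in all 8 columns.

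Markers of other cell types that a liver sample might carry were set beside these genes, read against 18.4% higher and 6.24% lower of all features tested, and 11.5% and 6.97% with detection on all 8 arrays. Of endocrine islet markers with detection on all 8 arrays, 1 of 4 was higher, Ins2 (log2 0.81 ± 0.08, SE), and 0 were lower. Chga passed with 1 control array detected, so the size of its difference rests on values near background. The transcription factor Pdx1 entered the test through the Eucommia arrays alone, being undetected on every control array, so its call is not counted here. Its bound was at least 1.11-fold higher. Ins1 (0.31) did not pass. In all 7 of 18 islet markers were detected on no array, among them the hormone genes Gcg and Sst, named after their values were seen. The summed unscaled signal of islet markers was 329 to 382 units on Eucommia arrays and 302 to 333 units on control arrays. Without Eucommia replicate 2, 3 or 4 Chga did not pass (adjusted p by limma up to 0.0598), nor did Chga or Pdx1 with normexp and quantile normalization together (adjusted p by limma 0.127 and 0.102).

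Of duct markers with detection on all 8 arrays, 1 of 6 passed, and it was lower. The chloride channel Cftr entered the test through the Eucommia arrays alone, so its call is not counted here. Its bound was at least 2.75-fold higher. Epcam, an epithelial adhesion molecule, fell by 0.52 ± 0.13 (adjusted p by limma 0.0173; 0.0546 without Eucommia replicate 2). Car2 (-0.37) and Slc4a4 (0.23) did not pass. Of 8 stomach markers on the array, Pgc was the one detected on all 8 arrays. Pgc, a pepsinogen, had 842, 797, 827 and 887 units on Eucommia arrays, against 341, 357, 360 and 339 units on control arrays, a log2 difference of 1.39 ± 0.11 (adjusted p by limma 2.45e-05). Atp4b, a subunit of the gastric proton pump, and Gkn1, a gastric mucosal protein, entered the test through the Eucommia arrays alone, so their calls are not counted here. The bound for Atp4b was at least 2.71-fold higher, and the Eucommia signals of Gkn1, 10.01 to 14.59 units, lay close to the lowest signal detected on control arrays. The other 5 stomach markers were not tested.

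Neither small intestine marker named here passed, with Fabp2 at 0.32 (limma, adjusted p 0.318) and Krt20 at 0.02 (adjusted p 0.956). Of adipocyte markers 1 of 4 was lower, Cfd (-0.49 ± 0.15; adjusted p by limma 0.0446), which passed in 2 of the 8 fits with an array omitted. Cidec (0.06) did not pass, and 3 of the 7 adipocyte markers on the array were detected nowhere. Of lymph node markers 3 of 10 tested were higher, and with detection on all 8 arrays 1 of 6, Cd3d (0.85, named for the count). Glycam1 (5.27 ± 0.28) was detected on 3 control arrays and Ccr7 on 1, so the size of the Ccr7 difference rests on values near background, while Ltb (0.03) and Ccl19 (-0.14) did not pass. Glycam1 had 834, 496, 606 and 720.5 units on Eucommia arrays, against 11.9, 17.1, 26.7 and 21.4 units on control arrays. The summed unscaled signal of the lymph node markers was 2037 to 2419 units in the Eucommia group and 1427 to 1794 units in the control group. The gap between these sums comes mostly from Glycam1. Over the 15 lymph node markers on the array the median log2 difference was 0.03. The summed unscaled signal of the 15 hepatocyte markers was 1.55e+06 to 1.66e+06 units on Eucommia arrays and 1.89e+06 to 2.19e+06 units on control arrays. The 75th percentile of the unscaled signals was 228 ± 8.43 units on Eucommia arrays and 250 ± 23.3 units on control arrays (SD, n = 4 each). The median log2 difference of the hepatocyte markers was -0.19, with 1 of 15 lower. With median centring 10 of 15 were lower, as were 8042 of all 25121 features, whose median difference was then -0.24. The part of any of these markers in the differences of the acinar genes was not tested.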

How the data were processed

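Liver RNA was measured on 8 1-colour Agilent arrays. The deposited intensity values come from Agilent Feature Extraction 10.1.1.1, as the submitters' processing notes state, and per the file headers are background-subtracted within each array, not scaled between arrays. Other flags in the same deposited files mark control, outlier and detected spots. On each array the deposited series table held the scanner's processed signal unchanged (100% of 43379 spots that are no controls; column medians 26.3 to 32.0).

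Control and outlier spots were left out and spots of a probe averaged. Log2 signals minus the array's 75th percentile were fitted by limma 3.58.1 (R 4.3.3), 2-sided. A gene was represented by its probe of highest mean signal among those detected on at least 4 arrays. RefSeq accessions named 16336 of 41012 probes (GRCr8), and unnamed probes counted as features of their own. On simulated data with 25121 features the test called 90% of log2 changes of 2 and 70% of changes of 1. The simulation was made for the Eucommia against control comparison, and 7 unchanged features were called. It held normal noise with no slide difference and no unequal detection limit. The 7 therefore say nothing about false calls in these data. The array number limits precision. A gene of the acinar list is counted but not reported here by name.

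The 9 genes, the lists and the alternatives were chosen with earlier results of these data known. Named genes are the 9, the 6 list genes of highest signal and the 6 largest past the threshold among other acinar genes, 2 and 2 of each other list, and 5 by likeness of profile. For a bound, the brighter group's mean was divided by the dim group's, with dim values raised to each array's lowest detected signal. Ways of processing were other scalings, normexp (offset 50) together with quantile normalization, use of the series table, other filters and probe rules, variance settings, the replicate block, and each array left out with the features kept. Mean spot signals were not used here, so normexp took median ones.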

Additional observations from a re-analysis of the deposited data

Results flagged for a closer look

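In groups of 4 arrays, the highest or lowest array was set against the others. Chance puts about 1 in 20 groups past the limit used, and 80 groups were looked at. Prss1 lay at -7.24 on Eucommia replicate 3, below the other Eucommia arrays (-5.86 to -5.68), and at -5.28 on control replicate 2, above the other control arrays (-6.38 to -6.21); all these spots were undetected. Cpb1 lay at -1.62 on control replicate 2, below the other control arrays (-0.81 to -0.65), and was detected on all of them. Pnlip lay at -4.17 on Eucommia replicate 4, above the other Eucommia arrays (-4.41 to -4.37). Outside the 9 genes, Ltb lay at 1.07 on control replicate 1 and Pgc at 2.14 on Eucommia replicate 4. The single high control arrays of Cela1 and Pnlip did not pass the same limit on the log2 scale, where the other 3 arrays were themselves spread.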

How the results depend on the processing

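The count of features past the threshold was 6177, and it became 11815 with median centring, 12806 with no filter on dim probes and 3719 with detection on all 8 arrays; without single arrays it ran from 4953 to 5764. The share of called features that were higher was 74.6% and became 58.7% with quantile normalization, 31.9% with median centring, 59.7% with normexp and quantile normalization together, 42.1% with no filter and 62.3% with detection on all 8 arrays; median centring moved the median log2 difference of all features to -0.24. The other acinar genes past the threshold numbered 8, against 14 with no filter and 5 with detection on all 8 arrays, and the markers of other cell types 12, against 27 and 5. The 12 include Pdx1, Cftr, Atp4b and Gkn1, which entered the test through the Eucommia arrays alone. The stricter filter tests fewer genes by construction, and the looser one admits probes at background. The number of the 9 genes sharing their highest array was 4 in each group, and 3 to 6 over the ways of processing, with ranks among undetected signals included. Values of 5 and 6 came only from fits that left out an array of that group. The log2 difference of Serpini2 against undetected control signals ran from 1.78 (normexp with quantile normalization) to 6.10 (quantile normalization alone). Some small differences that passed in neither direction changed sign. With median centring Cidec had -0.20, Slc4a4 -0.025, Ltb -0.22, Spink1 -0.076, Gata4 -0.13 and Krt20 -0.24. With normexp and quantile normalization Ltb had -0.014 and Krt20 -0.15, and with quantile normalization alone Krt20 had -0.14. Without single arrays Ltb ran from -0.016 to 0.075, Ccl19 from -0.26 to 0.022, Spink1l from -0.50 to 0.065, Spink1 from -0.18 to 0.69 and Krt20 from -0.10 to 0.17. The cause of these changes was not tested. Same-numbered arrays of the 2 groups had correlations of deviations of -0.10 to -0.03, so the numbers did not pair them; with the replicate block 5147 features passed, 8 other acinar genes and 11 markers. Dim signals limit precision: 3 of the 9 genes were detected on fewer than 4 arrays.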
